A study of Mus musculus with 12 samples.

Results

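Unstimulated bone marrow-derived macrophages (BMMs) of the Control group were compared with those of the WT group, the reference groups of 2 separate mouse crosses in which miR-182 was gained or lost. The comparison takes 4 of the 12 RNA-seq libraries of the series, Control 1 and 2 and WT 1 and 2, chosen by their labels alone. WT cells came from Mir182+/+LysMcre(+) mice, the littermates of Mir182flox/floxLysMcre(+) mice, whose BMMs are called Mir182ΔM/ΔM. Control cells came from LysMcre(+) mice, the littermates of LSL-Mir182LysMcre(+) mice, called Mir182mTg, in which Cre switches on a Mir182 cDNA placed in the Rosa26 locus. All groups are labelled C57BL/6, and all carry LysMcre, a Cre driven by the lysozyme M promoter, which is active in myeloid cells. Bone marrow of femur and tibia was grown with M-CSF for 3 days, and the 4 basal libraries are labelled as having had no RANKL. By their labels and the methods, Control and WT thus share the Cre, a normal Mir182 and the culture. The number of LysMcre copies is not given for either group, so it may differ between them. They differ in the cross they were bred in and the experiment they were grown for, which cannot be told apart. The labels and methods give no ages for these mice.

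BMMs are macrophages raised from bone marrow progenitors by M-CSF, and they serve as osteoclast precursors because RANKL turns them into bone-resorbing cells. Their resting state is not fixed. Cell division, surface receptors, cholesterol synthesis and a tonic response to type I interferon all depend on the genetic background of the mouse, on cell density and on the serum and growth factor batch. Control cells of different crosses are therefore a measure of how far BMMs of nominally like genotype can stand apart.

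The microRNA on which both crosses were built is shown to say what the libraries can and cannot see. RefSeq (GRCm38.p6) places mature mmu-miR-182-5p, a strand of 25 bases, on chr6:30165962-30165986, minus strand. The seed, bases 2 to 8, is in capitals.
mmu-miR-182-5p: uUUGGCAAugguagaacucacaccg
The methods describe libraries of poly-A+ RNA, which do not measure a mature microRNA, although replicate 2 is labelled total RNA. The gene Mir182 had 0 reads in all 4 libraries compared, against 2.39 and 4.40 CPM (reads of a gene scaled to a common total of reads on genes) in the Mir182mTg libraries.

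The libraries held 32708389 and 24951280 reads on genes for WT 1 and 2, and 31322692 and 26459982 for Control 1 and 2, so that 3 reads were worth 0.0917 to 0.120 CPM. Replicates correlated with r = 0.9981 in WT and 0.9983 in Control on log2(CPM + 1). Replicate 1 is labelled polyA RNA and replicate 2 total RNA in both groups, and the ribosomal RNA precursor Rn45s was at 1176 and 989 CPM in WT 1 and Control 1 but at 21273 and 15400 CPM in WT 2 and Control 2. The replicate number was therefore a term of the fits reported here. All 4 libraries expressed the Y-linked genes, with Ddx3y at 99.2 to 118 CPM, and Xist was at most 0.227 CPM. The BMM label held, since the receptor for M-CSF, Csf1r, was at 2209 and 2330 CPM in Control and 2647 and 2832 CPM in WT. WT basal and WT RANKL libraries carry the same genotype label but stood apart in Lyz2 and Ifi202b, as given with those genes. Every value of Control against WT rests on both WT basal libraries, so none can be given without them, whereas Mir182mTg against Mir182ΔM/ΔM, given last, uses no WT library. Haemoglobin genes and Cd3d and Cd3e, which define erythroid and T cells, were listed at 0 in all 4. A listed 0 can also come from the counting, since the glycolytic gene Eno1, which every cell uses, was at 0 in all 4 too, and haemoglobin genes are near-identical copies. The labels do not tie replicates to separate mice or cultures, so the spread between these libraries may be technical. The p-values and SE rest on that spread as a trend shared by all genes, not on the spread of each gene.

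A wide difference separated the reference groups. Genes were tested with limma on log2(CPM + 1), and a gene is called here when its Benjamini-Hochberg adjusted p was under 0.05 and it differed at least 1.5-fold. Of 11190 genes tested, 1880 were called higher in Control and 1049 lower, which is 16.8% and 9.37% of the genes and 26.2% in all. The adjusted p alone passed 78.3% of the genes, 5407 higher and 3354 lower, so the fold, not the p, sets the calls. The split depends on the scaling. With TMM factors 1418 genes were called higher and 1384 lower, 50.6% higher against 64.2% with plain CPM, since TMM moves the median log2 difference of all genes from 0.11 to 0.0047. At least 4-fold higher and called were 87 genes, and at least 4-fold lower 84. The number of genes at 1 CPM or more in both libraries of a group and below it in both of the other was 196 for Control and 156 for WT.

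The 2 replicate pairs gave the same picture. In both pairs 1648 genes were past 1.5-fold higher and 905 past 1.5-fold lower in Control, and 1 gene was past it in opposite directions. Across the tested genes, which are not independent replicates, the differences of pair 1 and pair 2 had Pearson's r = 0.971 and Spearman's rho = 0.951. The median gap between the pairs was 0.078 on the log2 scale.

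**Figure D1:**
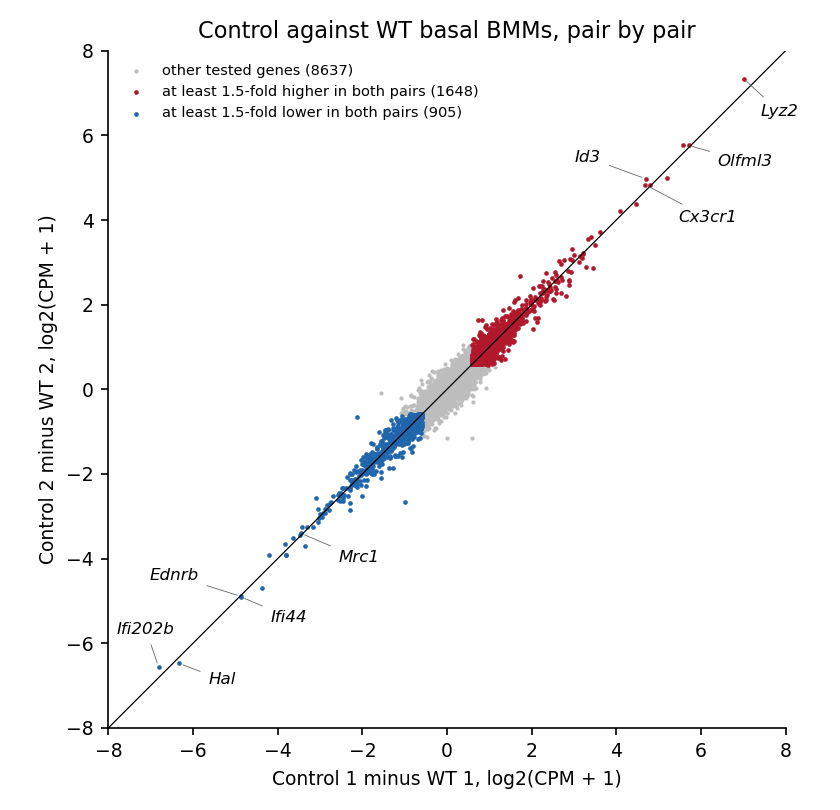
Difference between Control and WT basal BMMs in replicate pair 1 (x axis) and pair 2 (y axis), both in log2(CPM + 1), for each of the 11190 tested genes. Red points are the 1648 genes at least 1.5-fold higher in both pairs, blue points the 905 at least 1.5-fold lower in both, grey points all others, and the line marks equal differences, along which the named genes lie.

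Lyz2, the lysozyme M gene into which LysMcre is known to be inserted, showed the largest gain in Control on the log2(CPM + 1) scale, on which the differences of low genes are understated. It stood at 5783 and 6615 CPM in Control and at 44.0 and 39.8 CPM in WT. Its log2 difference was 7.17 ± 0.029 (SE, from the shared trend), with 7.01 and 7.34 in the 2 replicate pairs. Lyz2 lies on chr10:117277331-117282321, minus strand, by the GENCODE vM21 annotation of GRCm38. Control and WT did not overlap and the ratio of their means was 148, although both are labelled LysMcre(+). Its neighbour Lyz1, the intestinal lysozyme paralogue, went the other way, from 27.3 and 31.4 CPM in WT to 8.72 and 12.8 CPM in Control (log2 difference -1.39 ± 0.078). Reads of such near-identical copies can be split by the counting, so the level of Lyz1 is uncertain. The other groups fell on either side. Mir182mTg had Lyz2 at 6338 and 7062 CPM and Mir182ΔM/ΔM at 34.6 and 31.2 CPM, like their respective littermates. WT cells after 5 days of RANKL, which carry the same genotype label as WT basal, were at 4117 and 4288 CPM, whereas Mir182ΔM/ΔM cells after RANKL stayed at 24.0 and 22.5 CPM. In Lyz2 the WT basal libraries thus stood apart from the WT RANKL libraries of the same label.

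Ifi202b behaved as the mirror image. This gene of the PYHIN family, whose products bind DNA, is known to be silent in some inbred strains and active in others. It had 0 reads in both Control libraries and 112 and 93.4 CPM in the WT libraries, which makes it at least 981-fold lower in Control against a floor of 3 reads per library. Mir182mTg was at 0.091 and 0 CPM, Mir182ΔM/ΔM at 101 and 82.1 CPM, WT after RANKL at 1.12 and 0.97 CPM and Mir182ΔM/ΔM after RANKL at 152 and 143 CPM. Once more the WT RANKL libraries were on the side of Control and not of WT basal. Ifi202b lies on chr1:173962568-173982744, minus strand, among its paralogues, and reads of near-identical family members can be exchanged between them.

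**Figure D2:**
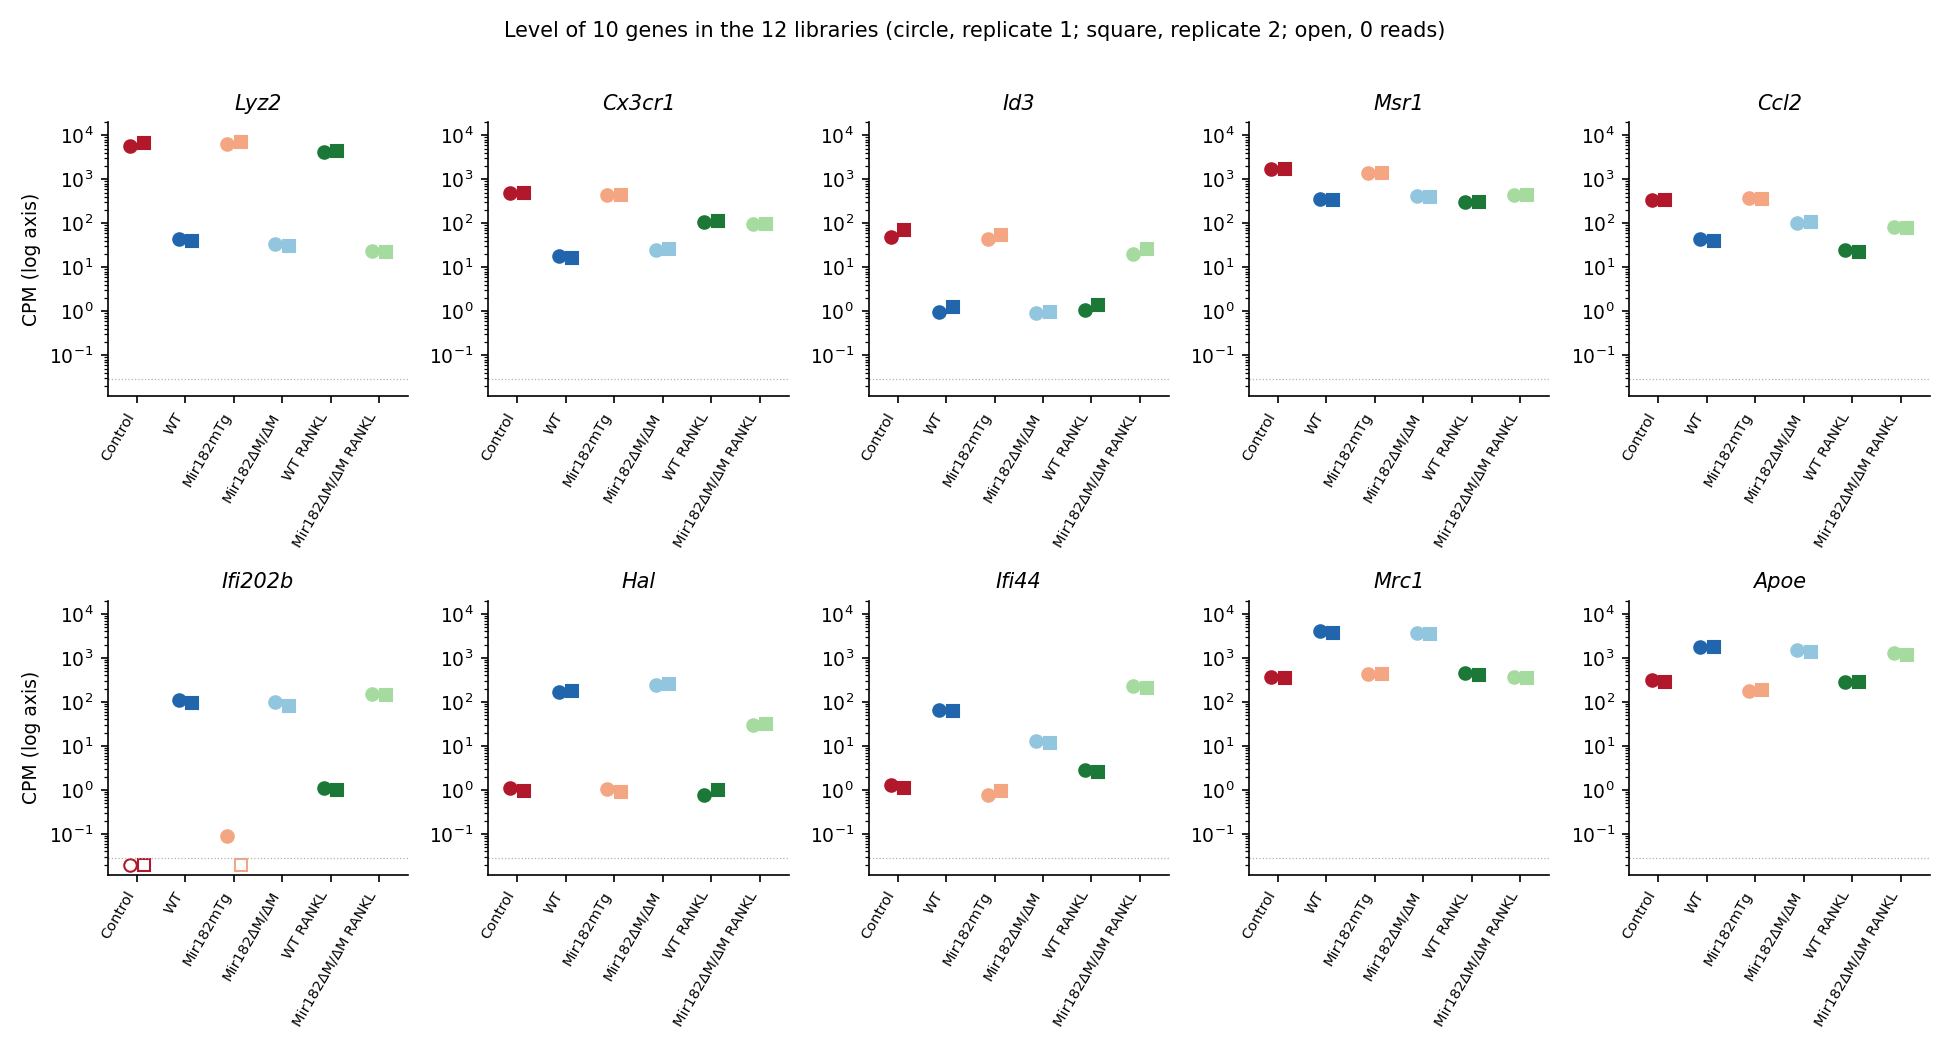
CPM (log axis) of 10 genes in the 12 libraries, with circles for replicate 1, squares for replicate 2 and open symbols below the dotted line for 0 reads; each colour is a group. In Lyz2 the WT RANKL libraries (dark green) sit near Control (red), and in Ifi202b they lie far below WT basal (blue), with both Control libraries at 0 reads.

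Genes known to differ between inbred mice gave no single direction. Of 10 such genes 9 were tested, and 4 were called higher and 4 lower in Control, beside 16.8% and 9.37% of all tested genes. The list was chosen with earlier results of these data known. Klra2 and Cd244, receptors of the Ly49 and SLAM families, Casp4, the sensor of intracellular lipopolysaccharide, and Ly6a, the Sca-1 antigen, were higher, with log2 differences of 1.99, 3.51, 1.20 and 1.02. Ifi202b, Wdfy1, Nnt and Trim12a were lower. Wdfy1, an adaptor of Toll-like receptor signalling, was at 17.5 and 19.4 CPM in Control against 54.9 and 56.7 CPM in WT. Nnt, the mitochondrial transhydrogenase, was at 48.4 and 46.0 CPM in Control against 79.2 and 72.6 CPM in WT, so reads of it were present in both groups. Nlrp1b, an inflammasome sensor, differed by -0.53, within 1.5-fold. Of the 4 Y-linked genes tested none passed 1.5-fold, and the largest difference was Kdm5d, a histone demethylase, at -0.49 ± 0.054. Eif2s3y differed by 0.065 ± 0.041 (limma, adjusted p = 0.131).

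The genes with the largest gains in Control, after Lyz2, were Olfml3, Nptx1, Id1, Id3, Cav1, Cx3cr1, Cspg4, Cd34, Itgal, Cd244 and Cxcl14, with log2 differences from 5.74 down to 3.45. Olfml3, a secreted matrix protein, rose from 0.581 and 0.361 CPM in WT to 81.7 and 72.9 CPM in Control. Nptx1, a pentraxin of synapses, rose from 0.673 and 0.281 CPM to 78.8 and 69.2 CPM. That the 4 values of each of these genes leave a wide gap between the groups follows from how they were chosen. Id1 and Id3, inhibitors of basic helix-loop-helix factors and classic targets of BMP signalling, moved together. Id1 was at 52.7 and 56.7 CPM in Control against 0.459 and 0.802 CPM in WT. Id3 was at 49.6 and 69.5 CPM in Control against 0.948 and 1.24 CPM in WT. Both were thus near the filter of 1 CPM in WT cells and far above it in Control cells.

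Cx3cr1, the fractalkine receptor that marks patrolling monocytes and tissue macrophages, was at 481 and 483 CPM in Control and 17.7 and 16 CPM in WT. Itgal, the alpha chain of the integrin LFA-1, was at 207 and 227 CPM in Control and 15.8 and 16.3 CPM in WT. Cd34, a sialomucin of progenitors, Cspg4, the NG2 proteoglycan, and Cav1, the main protein of caveolae, differed by 4.16, 4.43 and 4.81. Cd244 was at 14.8 and 15.1 CPM in Control and 0.489 and 0.321 CPM in WT. Cxcl14, a chemokine, differed by 3.45 ± 0.053. Cd207, the lectin langerin of Langerhans cells, chosen after its values were seen, had 0 reads in both WT libraries and 4.95 and 4.91 CPM in Control, at least 46.5-fold higher.

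On the side of WT, the largest differences after Ifi202b were in Hal, Ifi44, Ednrb, Ifi44l, Fcgr2b, Slit1, Scd1, Rab6b, Samd4, Gpr162 and Abca9, from -6.40 to -3.46. Hal, the enzyme that opens histidine breakdown, was at 170 and 172 CPM in WT and 1.12 and 0.945 CPM in Control. Ednrb, an endothelin receptor, was at 562 and 504 CPM in WT and 18.4 and 15.9 CPM in Control. Fcgr2b, the inhibitory receptor for IgG, was at 279 and 221 CPM in WT and 14.1 and 13.7 CPM in Control. That none of these genes overlapped between the groups follows from how they were chosen. Scd1, the desaturase that makes oleate, fell from 99.1 and 83.4 CPM in WT to 6.23 and 4.61 CPM in Control. The guidance ligand Slit1, the Golgi GTPase Rab6b, the RNA-binding Samd4, the orphan receptor Gpr162 and the transporter Abca9 lay between -3.85 and -3.46.

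Several genes of high level had an adjusted p (limma) too small to be told from 0. Among them were Lyz2, Cx3cr1 and Ccl2 higher in Control and Mrc1, Ednrb and Sepp1 lower. Others, such as Msr1 and Apoe, were tied with them. Mrc1, the mannose receptor of resting and alternatively activated macrophages, was at 4003 and 3734 CPM in WT and 365 and 352 CPM in Control (log2 difference -3.43 ± 0.029). Sepp1, the selenium transport protein, was at 4727 and 4096 CPM in WT and 620 and 543 CPM in Control. Ccl2, the chemokine that draws monocytes, was at 340 and 343 CPM in Control and 44.4 and 40.0 CPM in WT.

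Gene lists are described by their counts and medians, beside 16.8% of tested genes called higher, 9.37% called lower and a median log2 difference of 0.11 over all of them. No test was made for the lists. Lists chosen for programs of macrophages fell on both sides of that median.

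**Figure D3:**
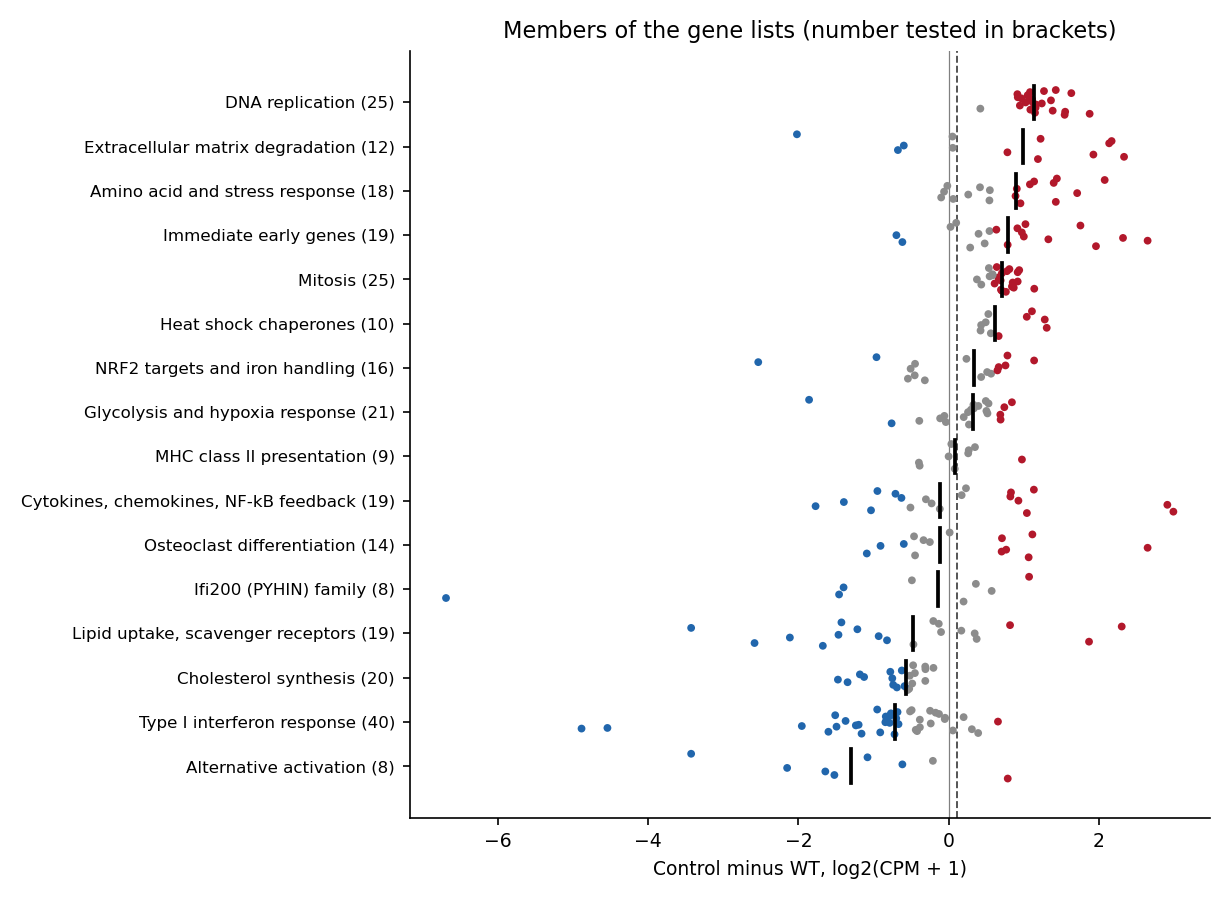
Log2 difference, Control minus WT, of each tested member (points) of 16 gene lists, with the list median as a black bar and the median of all tested genes as a dashed line. Red points were called higher at 1.5-fold, blue points lower and grey points neither; DNA replication and mitosis hold no blue point, and cholesterol synthesis holds no red point.

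Cell division genes were higher in Control. Of 25 DNA replication genes 24 were called higher and 0 lower, with a median log2 difference of 1.14. The exception was E2f1, at 0.42. Ccne2, a cyclin that starts S phase, was at 91.6 and 75.3 CPM in Control against 24.8 and 19.4 CPM in WT. Rrm2, the subunit of ribonucleotide reductase that limits deoxynucleotide supply, was at 169 and 175 CPM against 50.8 and 59.4 CPM. Cdc6, which loads the replicative helicase, and Ccne1 differed by 1.55 and 1.54. Of 25 mitosis genes 19 were called higher and 0 lower, with a median of 0.71. Bub1, a kinase of the spindle checkpoint, was at 127 and 118 CPM in Control against 59.1 and 51.4 CPM in WT, and Top2a, Cdk1 and Prc1 differed by 0.94, 0.92 and 0.92. Both lists kept their sign under every setting tried, with medians of 1.03 to 1.17 for replication and 0.59 to 0.73 for mitosis. In bulk RNA, fewer cells of a kind and less RNA per cell cannot be told apart, here and below.

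The E2F factors that drive S phase genes are known to bind a core of TTTCCCGC. Promoter windows of RefSeq (GRCm38.p6), 250 bases before to 50 after the start, were searched for it on both strands. It occurred in 3 of the 20 replication genes that had a window (15%), against 2.51% of the 8653 tested genes with a window. The stretches around these 3 matches are shown with the core, or its complement, in capitals.
Cdc6, chr11:98908002-98908031, plus strand: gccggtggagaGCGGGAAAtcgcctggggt
Mcm3, chr1:20820275-20820304, minus strand: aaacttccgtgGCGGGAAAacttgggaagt
Mcm7, chr5:138172030-138172059, minus strand: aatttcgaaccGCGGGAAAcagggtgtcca
The helicase subunits Mcm3 and Mcm7 differed by 1.02 and 0.97 and Cdc6 by 1.55. A match describes the letters only, and no match says only that these letters are not in the window.

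Immediate early genes, the first to answer a growth or stress signal, were mostly higher in Control. Of 19 tested, 11 were called higher and 2 lower, with a median of 0.78. Fos was at 83.4 and 81.0 CPM in Control against 13.1 and 11.5 CPM in WT. Myc, a driver of growth, was at 90.2 and 67.8 CPM against 26.3 and 19.2 CPM. Fosl1 and the phosphatase Dusp1 differed by 2.32 and 1.96. The 2 lower genes were Ier3 and Egr2, at -0.70 and -0.62. Of 10 heat shock chaperones 5 were called higher and 0 lower (median 0.61), led by Hsp90aa1 at 257 and 248 CPM in Control against 106 and 97.4 CPM in WT. Hspa8, the constitutive chaperone of the same system, was at 924 and 749 CPM against 383 and 307 CPM, and Hsph1 and Hspd1 differed by 1.11 and 1.04.

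Amino acid supply went the same way. Of 18 genes of amino acid synthesis, transport and the integrated stress response, 10 were called higher and 0 lower, with a median of 0.90. Slc7a5, the transporter of large neutral amino acids, was at 45.8 and 52.9 CPM in Control against 11.1 and 10.8 CPM in WT. Mthfd2, a mitochondrial folate enzyme, was at 62.5 and 67.5 CPM against 18.3 and 20.1 CPM. Trib3 and Asns, both targets of ATF4, differed by 1.44 and 1.42. Atf4 itself differed by 0.54 and Ddit3 by 0.26, both within 1.5-fold. Of 21 genes of glycolysis and the hypoxia response 4 were called higher and 2 lower, with a median of 0.33. The glucose transporter Slc2a1 and the enzyme Pfkp were higher by 0.84 and 0.74, while Vegfa, the angiogenic factor, was at 70.7 and 66.4 CPM in WT and 18 and 18.4 CPM in Control. Ankrd37, another hypoxia target, was lower by 0.76.

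Cholesterol synthesis was lower in Control. Of 20 genes 10 were called lower and 0 higher, all 20 had negative differences, and the median was -0.57. Hmgcs1, which makes the precursor of mevalonate, was at 185 and 168 CPM in Control against 481 and 419 CPM in WT. Insig1, the sterol sensor of the pathway, was at 84.7 and 92.3 CPM against 237 and 259 CPM. Mvd and Lss, later enzymes, differed by -1.18 and -1.13, whereas Sqle, which makes squalene epoxide, differed by -0.20, within 1.5-fold. The core TCACNCCAC, to which sterol response element binding proteins are known to bind, was found in 1 of the 13 genes that had a window (7.69%), against 1.38% of tested genes. It is shown because it lies in Hmgcs1, the gene with the second largest difference of the list.
Hmgcs1, chr13:119690204-119690232, plus strand: cgtcaccgtcTCACCCCACttcccaggtc

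Receptors for lipid and debris were split. Of 19 tested genes of lipid uptake, scavenging and lipid export, 3 were called higher and 9 lower in Control, with a median of -0.47. Apoe, the apolipoprotein that carries lipid out of macrophages, was at 312 and 285 CPM in Control against 1791 and 1790 CPM in WT. Cd5l, a secreted scavenger protein, was at 35.0 and 33.4 CPM against 148 and 155 CPM. The scavenger receptor Msr1 went the other way, at 1757 and 1698 CPM in Control against 364 and 336 CPM in WT. Mrc1 is given above, and the engulfment receptor Mertk fell by 1.22. Genes of alternative activation, a state brought about by interleukin 4, were called lower in 6 of 8 tested and higher in 1, with a median of -1.30. Clec10a, a lectin, was at 5.71 and 7.37 CPM in Control against 29.2 and 35.6 CPM in WT. Chil3, a chitinase-like protein, was at 4.37 and 5.82 CPM against 15.3 and 20.9 CPM. Ccl24 was at most 3.00 CPM in any of the 4 libraries (log2 difference -1.52). Retnla, Ccl17 and Ear2, other markers of that state, had 0 reads in all 4 libraries.

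Iron and redox genes gave 5 higher and 2 lower of 16, with a median of 0.33. Slc40a1, the iron exporter ferroportin, was at 93.8 and 109 CPM in Control against 562 and 621 CPM in WT. Tfrc, which takes up iron, was lower too, at 284 and 301 CPM against 539 and 604 CPM. Slc7a11 and Txnrd1, targets of the redox factor NRF2, were higher by 1.14 and 0.78.

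Proteases of the matrix gave 7 higher and 3 lower of 12 tested, with a median of 0.98. Mmp12, the macrophage elastase, was at 496 and 408 CPM in Control against 99.9 and 78.5 CPM in WT. Plau, the urokinase, was at 757 and 901 CPM against 173 and 203 CPM, and its receptor Plaur differed by 2.17. Timp2, an inhibitor of these proteases, was at 131 and 123 CPM in Control against 538 and 498 CPM in WT.

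Inflammatory cytokines and chemokines had no common direction. Of 19 tested, 7 were called higher and 6 lower, and the median of -0.12 changed sign in some settings. Ccl7, a neighbour of Ccl2 with a like role, was at 96.1 and 118 CPM in Control against 13.3 and 13.3 CPM in WT. Ccl6 was at 99.3 and 102 CPM in Control against 347 and 345 CPM in WT, and Cd40, a costimulatory receptor, at 8.68 and 8.01 CPM against 21.8 and 25.5 CPM. Il6, Il12b, Il1a and Il1b were below 1 CPM in all 4 libraries. Of 9 genes of MHC class II presentation, 1 was called higher, the protease gene Ctss at 2513 and 2264 CPM in Control against 1282 and 1149 CPM in WT.

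Genes of osteoclast differentiation, which RANKL raises, gave 6 higher and 3 lower of 14 tested, with a median of -0.12 whose sign was not kept in all settings. Tnfrsf11a, the receptor RANK itself, was at 204 and 193 CPM in Control against 92.6 and 90.0 CPM in WT. Acp5, the acid phosphatase TRAP, was at 9.74 and 9.79 CPM against 5.08 and 3.37 CPM. Clcn7, the chloride channel of the resorbing membrane, was at 139 and 160 CPM in Control against 299 and 341 CPM in WT. Nfatc1, the master factor of osteoclasts, differed by -0.25 and Prdm1, its partner in removing repressors, by -0.34, both within 1.5-fold.

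The type I interferon response was lower in Control. Interferon-stimulated genes are switched on when type I interferon binds its receptor, and resting macrophages express them at a low tonic level. Of 40 such genes 23 were called lower in Control and 1 higher, with a median of -0.71 that stayed between -0.84 and -0.68 in all settings. Ifi44 was at 66.4 and 62.9 CPM in WT and 1.31 and 1.13 CPM in Control. Its paralogue and neighbour Ifi44l was at 19.8 and 25 CPM in WT and had 0 reads in Control, at least 214-fold lower. Ifit2, which blocks translation of viral RNA, was at 69.6 and 62.5 CPM in WT against 17.2 and 15.3 CPM in Control, and Ddx60, a helicase of antiviral sensing, at 27.5 and 28.5 CPM against 8.30 and 8.81 CPM. Of the transcription factors of the pathway, Irf9 differed by -0.24 and Stat2 by -0.68. Eif2ak2, the kinase PKR, was at 121 and 111 CPM in Control and 121 and 103 CPM in WT, a log2 difference of 0.055 ± 0.037 (limma, adjusted p = 0.16). The gene called higher was Ly6e, at 0.66.

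Interferon-stimulated genes are known to carry an element with the core GAAANNGAAA, bound by factors of the IRF family. The core, on either strand, was in 17 of the 29 listed genes that had a promoter window (58.6%), against 3.95% of tested genes and 3.99% of all 27025 windows. Since such genes were defined by their response to interferon, this describes the list and not the samples. Windows of 4 of the genes are shown with the core or its complement in capitals. Rsad2, Ifit1 and Ifit3 were chosen after their values were seen, and they differed by -1.51, -1.49 and -1.24.
Ddx60, chr8:61928024-61928053, plus strand: gtgatgaatgGAAACCGAAActtaaagctt
Rsad2, chr12:26456553-26456582, minus strand: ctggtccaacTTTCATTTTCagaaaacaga
Ifit1, chr19:34640775-34640804, plus strand: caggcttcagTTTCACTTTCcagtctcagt
Ifit3, chr19:34583363-34583392, plus strand: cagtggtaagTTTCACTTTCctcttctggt

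The PYHIN family, interferon-inducible genes next to each other on distal chromosome 1, was split. Of 8 tested members 3 were called lower in Control and 1 higher, and the median of -0.15 was not of constant sign. Ifi203 was at 63.5 and 51.4 CPM in Control against 183 and 138 CPM in WT. Ifi205 was at 0.511 and 1.17 CPM against 5.63 and 2.44 CPM. Pyhin1 was higher in Control, at 10.1 and 8.54 CPM against 4.34 and 3.49 CPM.

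Large housekeeping groups lay near the median of all genes. Of 77 ribosomal protein genes 1 was called higher, Rpl29, and 0 lower (median 0.19), and of 76 genes of oxidative phosphorylation 2 were called higher and 1 lower (median 0.20). Both medians were between 0.075 and 0.22 in all settings, so these groups moved little whatever the scaling.

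Markers of other cells of the marrow were measured beside these differences, and their part in the results was not tested. Macrophage markers summed to 14598 and 14784 CPM in Control and 18988 and 19123 CPM in WT, with 4 of 21 called higher and 7 lower. Beside Cx3cr1, the chemokine receptor Ccr2 of inflammatory monocytes was higher in Control, at 238 and 227 CPM against 66.5 and 65.6 CPM. The complement gene C1qa was lower, at 340 and 313 CPM against 831 and 789 CPM. Neutrophil and precursor markers summed to 125 and 117 CPM in Control and 188 and 176 CPM in WT, with 3 of 11 called higher and 6 lower. Ltf, Ngp, Camp and Csf3r had the largest differences, all lower in Control, while the members called higher reached at most 0.70. The list median of -0.69 had no constant sign over the settings. The granule gene Ltf was at 0.639 and 1.10 CPM in Control against 12.9 and 11.5 CPM in WT. Of T and NK markers only Cd4 reached the filter, at 5.08 and 4.77 CPM in WT and 0.096 and 0.151 CPM in Control, while Cd3d and Cd3e had 0 reads. The list summed to 0.575 and 0.567 CPM in Control and 5.56 and 5.05 CPM in WT. B cell markers summed to 2.30 to 3.13 CPM, mast cell and basophil markers to 0.153 to 0.302 CPM. Dendritic markers other than Itgax were below the filter, and Itgax was at 21.6 and 21.7 CPM in Control and 5.41 and 5.17 CPM in WT. Erythroid markers summed to at most 3.12 CPM, of which Epor, the erythropoietin receptor, gave 3.06 and 3.01 CPM in WT and 0.192 and 0 CPM in Control. Stromal and endothelial markers summed to 10.5 and 28.8 CPM in Control and 13.2 and 28.3 CPM in WT, with 0 of 6 tested called higher and 2 lower. The 2 were the collagen genes Col1a1 and Col1a2, at -0.82 and -0.65. In replicate pair 1 they differed by -1.55 and -1.09, but in pair 2 by -0.081 and -0.21, within 1.5-fold. The sums of the list differed more between replicate numbers than between groups.

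Called genes were spread over the genome. From the GENCODE vM21 positions of 10767 tested genes, the share called ran from 21.7% on chromosome 17 to 30.8% on chromosome 6, apart from the 4 tested genes of Y, of which 0 were called. Among 403 windows of 5 Mb with at least 8 tested genes, the highest share was on X, from 55000001 to 60000000, where 7 of 10 were called. They were Fgf13, Htatsf1, Mmgt1 and Rbmx, higher, and Arhgef6, Smim10l2a and 3830403N18Rik, lower. The next was on chromosome 6, from 15000001 to 20000000, with 6 of 9 called. There Cav1, Cav2, Met, Tes and Lsm8 were higher and Tfec, a factor of macrophages, was lower. The neighbours Cav1 and Cav2 encode partners in caveolae, and Cav2 was at 171 and 181 CPM in Control against 88.9 and 98.1 CPM in WT.

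By count, a window of distal chromosome 1 held the most genes of large difference. In the window from 170000001 to 175000000, singled out after its values were seen, 18 of 51 tested genes were called (35.3%), 9 in each direction. By that share it ranked 92 of 403 windows. Of its genes 7 were at least 4-fold apart, a higher count than in any other window. Among all 11190 tested genes 87 were at least 4-fold higher and 84 lower. Smaller windows had larger shares at 4-fold, such as 2 of 11 on chromosome 10, from 65000001 to 70000000. In the chromosome 1 window, lower in Control were the Fc receptors Fcgr2b, Fcgr3 and Fcgr4, the potassium channel Kcnj10, and Ifi202b, Ifi203 and Ifi205. Kcnj10 was at 39.6 and 32.3 CPM in WT and 2.78 and 2.49 CPM in Control. Higher in Control were Slamf9, a SLAM receptor, at 32.9 and 39.7 CPM against 6.54 and 6.45 CPM, and F11r, a junctional adhesion molecule, at 11.8 and 13.3 CPM against 1.44 and 1.44 CPM. Sh2d1b1, an adaptor of SLAM receptors, and Olfml2b differed by 2.73 and 2.55.

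The other genotypes of the same crosses allow the comparison to be made again with libraries that share none with the first. Mir182mTg basal minus Mir182ΔM/ΔM basal sets the same experiments against each other, together with opposite miR-182 alleles. Of 11219 genes tested 1336 were called higher and 890 lower, which is 11.9% and 7.93% of the genes and 19.8% in all, while the adjusted p alone passed 73.5%. Over 11093 genes tested in both comparisons, Pearson's r was 0.873, Spearman's rho 0.877 and the slope 0.79. These points share experiment, preparation and replicate structure, and no p is given. Of 2888 genes called in Control against WT, 2843 (98.4%) had the same sign in the other genotypes. Called the same way in both were 1761 genes, 61.0% of those called in Control against WT and 81.0% of the 2175 called in the other comparison, with 1086 higher and 675 lower. Called in opposite directions were 17 genes.

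**Figure D4:**
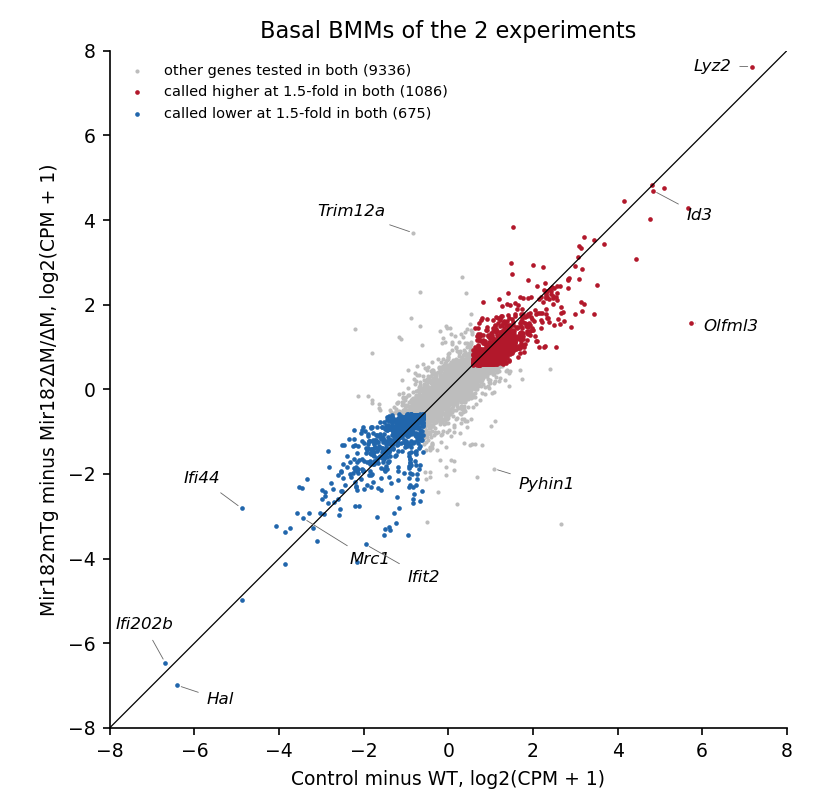
Log2 difference of Control minus WT (x axis) and of Mir182mTg minus Mir182ΔM/ΔM (y axis) in basal BMMs, in log2(CPM + 1), for the 11093 genes tested in both. Red and blue points are the 1086 and 675 genes called higher and lower at 1.5-fold in both, and the line marks equal differences; Olfml3, Pyhin1 and Trim12a lie far from it.

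Several of the leading genes had like differences in both comparisons. Lyz2 differed by 7.17 in Control against WT and 7.63 in the other genotypes, Hal by -6.40 and -7.00, Id3 by 4.84 and 4.70, Cav1 by 4.81 and 4.83 and Mrc1 by -3.43 and -3.05. The lists recurred to unequal degrees. Replication genes had medians of 1.14 and 0.65, with 24 and 16 of 25 called higher, and mitosis genes of 0.71 and 0.41, with 19 and 2 of 25 called higher. Cholesterol genes had medians of -0.57 and -0.68, with 10 and 13 of 20 called lower, and interferon genes of -0.71 and -1.84, with 23 of 40 and 35 of 39 called lower. Alternative activation genes went from a median of -1.30 to -0.18, with 2 of 6 called lower in the second, and neutrophil markers from -0.69 to -0.0086. A test of the difference between the comparisons (limma interaction over the 8 basal libraries) called 566 of 11190 genes at 1.5-fold, 5.06%, of which 252 were higher and 314 lower on the side of Mir182mTg minus Mir182ΔM/ΔM. Ifit2 was among the latter, at -1.71, as it differed by -1.95 in Control against WT and by -3.67 in the other genotypes. Olfml3 was too, at -4.16, since Mir182mTg had only 6.84 and 6.09 CPM and Control 81.7 and 72.9 CPM.

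A comparison of cells after RANKL, added after values were seen, gave another pattern. WT RANKL minus Mir182ΔM/ΔM RANKL sets groups labelled as littermates against each other and shares no library with either of the others. In Lyz2 and Ifi202b these groups stood far apart, as given above. The comparison holds no Control library and differs from Control minus WT in genotypes as well as in RANKL, which cannot be told apart. Of 11415 genes tested, 1786 were called higher and 859 lower, which is 15.6% and 7.53% of the genes and 23.2% in all, while the adjusted p alone passed 73.8%. Over 10877 genes tested in all 3 comparisons, r with Control against WT was -0.031, and 1105 of 2785 called genes (39.7%) had the same sign. Called the same way in all 3 were 193 genes higher and 157 lower, out of 1086 and 675 called so in both basal comparisons. Beside the 15.6% and 7.53% of all genes, the share was near the background for the higher genes and above it for the lower. No test was made of this overlap. At least 4-fold apart the same way in all 3 were 16 genes. The 7 higher were Abi3, Angptl7, Cd276, Itgb7, Lyz2, Myo1d and Pira6. The 9 lower were Apoe, Cd5l, Gm14085, Gm4951, Hal, Ifi202b, Ifi44, Padi4 and Rab6b.

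Their pattern follows from how they were chosen, and values of 4 are given as a description. Itgb7, the beta chain of a homing integrin, was at 85.0 and 95.2 CPM in Control, 90.9 and 102 CPM in Mir182mTg and 99.2 and 111 CPM in WT RANKL. It was at 10.8 and 12.9 CPM in WT basal, 14.2 and 15.6 CPM in Mir182ΔM/ΔM basal and 21.1 and 26.1 CPM after RANKL. Cd276, the checkpoint ligand B7-H3, was at 25.2 and 22.9 CPM in Control and 32.5 and 27.9 CPM in WT RANKL, but at 1.99 and 1.68 CPM in WT basal. Padi4, the enzyme that citrullinates histones, was at 5.75 and 6.88 CPM in Control and 2.35 and 1.91 CPM in WT RANKL, but at 42.9 and 44.4 CPM in WT basal. Rab6b was at 0.255 and 0.189 CPM in Control and 0.120 and 0.288 CPM in WT RANKL, but at 17.0 and 13.9 CPM in WT basal. By contrast, cell cycle and cholesterol genes had medians of opposite sign in WT RANKL minus Mir182ΔM/ΔM RANKL and in Control minus WT. In the former they were -0.37 for replication, -0.48 for mitosis and 0.18 for cholesterol synthesis. For the interferon list the median after RANKL was -2.72, with 38 of 39 genes called lower in WT.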

How the data were processed

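RNA-seq values of 12 libraries, 6 groups of 2, were grouped by their labels. Per the methods the authors purified poly-A+ RNA with a TruSeq kit and aligned reads to mm10, whereas replicate 2 is labelled total RNA. The submitters' processing notes name TopHat and Cufflinks for replicate 1 and HISAT2, HTSeq and edgeR for replicate 2; their versions, the annotation and the use of strand are not given in the sources used here, so overlapping genes on opposite strands cannot be told apart. For Control and Mir182mTg the authors deposited raw read counts per gene. For WT and Mir182ΔM/ΔM they deposited CPM. Divided by a constant per library, these were whole reads in 100% of entries (tolerance 0.01). The deposited CPM summed to 1000000 in each library, so they hold no TMM factor. The deposited RPKM of replicate 1 served only for gene lengths.

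Counts were scaled to CPM, the 27 symbols turned into dates (at most 0.215% of reads) were left out of 24421 genes, and genes with at least 1 CPM in 2 of the 4 libraries were kept. Differences of log2(CPM + 1) were tested with limma 3.58.1 (R 4.3.3; lmFit, eBayes with trend) with group and replicate number, and p-values were adjusted by Benjamini-Hochberg over all genes tested. On this scale folds of low genes are understated. With 1 residual degree of freedom and an infinite prior, the variance is in effect a trend shared by all genes. Deviations of same-numbered libraries correlated at r = 0.686 to 0.754 over the 6 groups (Control with WT 0.746), and the labels tie the number to RNA type and tools, hence the block. Replicates differed beyond counting noise (chi-square per gene 54.4 in Control and 72.3 in WT). Floors of 3 reads cover counting error only.

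Named were, beside the genes of the lists on strain, cross and sex and Mir182, Eif2ak2, Xist and Rn45s, the 12 largest called differences in each direction among genes with the same direction in both pairs and at least 5 CPM in the higher group; up to 4 called members of each list with the largest differences; the 3 genes in each direction with the smallest adjusted p and at least 100 CPM; and called genes of the 2 windows with the highest share. Many genes tied at an adjusted p too small to be told from 0, so the smallest adjusted p alone did not single out the genes named by it. Other names were chosen after their values were seen. The members, lists and comparisons were chosen with earlier results of these data known. The scripts were tested on simulated data. Alternatives were no block, other filters, a pseudocount of 0.1, TMM and quantile scaling, all 12 libraries, each library left out, and edgeR 4.0.16 and DESeq2 1.42.0 on the counts and the recovered reads. Values of some list members are not reported here.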

Additional observations from a re-analysis of the deposited data

Results flagged for a closer look

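For 5 named genes the difference between the experiments went opposite ways in the 2 basal comparisons, with an adjusted p under 0.05 in each comparison and in limma's interaction term. Genes of opposite sign that missed that threshold in a comparison, such as Eif2ak2 and Nlrp1b, are not counted. Its value is Mir182mTg minus Mir182ΔM/ΔM less Control minus WT, in log2 units, and no explanation was tested. Trim12a, a member of a cluster of interferon-inducible genes known to vary between mouse strains, had 4.52, with -0.82 in Control against WT and 3.69 in the other genotypes. It was at 7.12 and 7.14 CPM in Control, 14.3 and 12.5 CPM in WT and 12.7 and 12.1 CPM in Mir182mTg, and at 0 and 0.075 CPM in Mir182ΔM/ΔM. Pyhin1 had -2.94 (1.07 and -1.87), and Mir182ΔM/ΔM was the high group, at 36.8 and 32.3 CPM. Ly6a had -1.89 (1.02 and -0.87), again with Mir182ΔM/ΔM highest, at 6.33 and 10.6 CPM. Rps4l, a ribosomal protein gene close in sequence to others of its family and so uncertain, had 0.96 (-0.50 and 0.46). Ddx3y had -0.32, with 0.094 in Control against WT, which turned negative with TMM scaling.

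In libraries outside the main comparison, 3 signals stood out. Lyz2 had a mean of 4203 CPM in WT RANKL, against 41.9 CPM in WT basal of the same genotype label. Ifi202b had a mean of 1.04 CPM in WT RANKL, above the 0 reads of Control and far under the 103 CPM of WT basal. Mir182 had a mean of 3.40 CPM in Mir182mTg and 0 reads in Control and WT.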

How the results depend on the processing

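Counts of called genes changed by more than 1.5 times in the following cases. Without the replicate block, 3205 genes were higher and 1861 lower in Control at an adjusted p under 0.05, against 5407 and 3354 with it, and 3025 and 1631 in Mir182mTg against Mir182ΔM/ΔM, against 5395 and 2849. With the 1.5-fold threshold the pairing by replicate number mattered little, with 1847 higher and 1030 lower without the block. edgeR called 1595 genes lower at 1.5-fold, against 1049 with limma, and 1602 higher, against 1880. The cause was not tested, and edgeR differs from the limma fit in both scaling and pseudocount. By its adjusted p alone edgeR called 100% of the genes limma called at 1.5-fold. DESeq2 found 3244 genes higher in Control and 2731 higher in Mir182mTg at its adjusted p. Leaving out 1 of the 4 libraries in turn, in the fit of all 12, where the lone library is assumed to vary like the other groups, gave 4917 to 5034 genes higher and 2967 to 3092 lower by the adjusted p, and 1874 to 1924 genes higher and 1052 to 1064 lower at 1.5-fold.

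Of 137 named genes tested 134 were called at the adjusted p, and 14 lost the call in at least 1 setting other than leaving out a library. The difference of Ddx3y changed sign to -0.022 with TMM, -0.026 with edgeR and -0.022 with DESeq2. Without the block Rn45s, Col1a1, Col1a2 and Rpl29 were among those that lost the call, and the cause was not tested. The medians of the lists on PYHIN genes, cytokines, MHC class II, neutrophils, osteoclasts, stroma and sex had no constant sign. With 2 libraries per group the spread of a single gene is hardly measured, and values under 3 reads were not interpreted.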

Other observations

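Genes called in opposite directions in the 2 basal comparisons included some whose high and low groups did not follow the crosses, picked after their values were seen. Plekha7, a junction protein, was at 8.68 and 8.92 CPM in Control and 0.306 and 0.802 CPM in WT basal, but at 0.635 and 0.716 CPM in Mir182mTg and 13.5 and 15.0 CPM in Mir182ΔM/ΔM. WT cells after RANKL had 8.54 and 8.85 CPM of it. Asb4 was at 12.2 and 11.1 CPM in WT basal, at 1.70 to 1.93 CPM in Control and Mir182mTg, and at 0.037 and 0.075 CPM in Mir182ΔM/ΔM. Ifi44l, which was not tested in Mir182mTg against Mir182ΔM/ΔM and so is not among the genes called in opposite directions, reached 19.8 and 25 CPM in WT basal, and it had 0 reads in Control, Mir182mTg and WT RANKL, and at most 0.433 CPM in the Mir182ΔM/ΔM libraries. Epas1, the hypoxia factor HIF-2 alpha, was at 14.6 and 12 CPM in Control, 32.9 and 29.4 CPM in WT, 92.3 and 87.1 CPM in Mir182mTg and 39.9 and 35.1 CPM in Mir182ΔM/ΔM. Gbp2b, a guanylate-binding protein, was at 3.89 and 3.06 CPM in Control and 7.80 and 4.73 CPM in WT, and had 0 reads in both Mir182ΔM/ΔM basal libraries. In Trim12a, Plekha7, Asb4, Ifi44l and Gbp2b the WT basal and Mir182ΔM/ΔM basal libraries, labelled as littermates, thus differed from each other.

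Gas6, the ligand of Axl and Mertk, was also picked after its values were seen. It was at 1995 and 2210 CPM in WT and 342.5 and 384 CPM in Control, where Mertk was lower by 1.22 and Axl higher by 1.87.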
